A study of Mus musculus with 6 samples.

Results

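The cytosolic ribosomal protein genes encode the protein subunits of the ribosome that translates nuclear-encoded mRNA. They were chosen by symbol from the deposited gene table: names beginning with Rpl or Rps followed by a digit, the P-stalk genes Rplp0, Rplp1 and Rplp2, and Rpsa, leaving out symbols with -ps (pseudogenes) and the Rps6k kinases. The rule found 87 of the 24062 listed genes. They comprise 31 subunit genes of the small (40S) particle, 46 of the large (60S) particle, 9 paralogs of such genes and Rps19bp1, which encodes a binding partner of a ribosomal protein and no subunit. The rule used names and no measured value.

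The RNA was that of hematopoietic stem cells (HSC), from which all blood lineages derive. Mice received 4 daily tamoxifen injections of 120 mg per kg, and HSC were collected by sorting on day 5. The 3 CDKO libraries came from mice labelled Nr4a1 fl/fl; Nr4a3-/-; Rosa26-ERt2, and the 3 Control libraries from mice labelled Nr4a1 fl/fl; Nr4a3-/-. Both groups thus lacked Nr4a3 and received tamoxifen, and they differed in the Rosa26-ERt2 construct, by background a ubiquitously driven, tamoxifen-activated Cre recombinase that removes the floxed Nr4a1 sequence. Each library was a pool of 3 to 5 mice, mouse ages and sort markers are not given in the sources used here, and Cre activity and loss of Nr4a1 cannot be told apart in this design.

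Libraries held 32863805 to 42772261 counted reads, so 3 reads, the number that a count of 0 still allows, correspond to 0.0701 to 0.0913 CPM by library (CPM, reads per 1000000 counted reads), counting error only. Nr4a1 itself stood at 8.52, 9.77 and 9.12 CPM in CDKO pools and at 15.2, 13.4 and 12.9 CPM in Control pools (log2 difference -0.55, SE 0.12, limma adjusted p = 0.00204). All 12 HSC markers checked had reads in both groups, with summed levels of 4670 to 4880 CPM in CDKO pools and 5007 to 5279 CPM in Control pools. Markers of other blood cells differed between the groups. The 10 neutrophil markers summed to 15.5 to 89.6 CPM in CDKO pools and 799.8 to 1048 CPM in Control pools. The 12 erythroid markers found summed to 56.5 to 92.2 CPM in CDKO pools and 508 to 577 CPM in Control pools. The globin genes Hba-a1, Hba-a2 and Hbb-bt were listed at 0 in every pool. How reads that match several genes were treated is not given, so these zeros need not mean that globin RNA was absent. The 5 basophil and mast cell markers summed to 3.62 to 7.86 CPM in CDKO pools and 199.9 to 259 CPM in Control pools. The 6 megakaryocyte markers summed to 401 to 411 CPM in CDKO pools and 284 to 313 CPM in Control pools, and the 5 macrophage markers found to 29.7 to 33.6 CPM in CDKO pools and 12.2 to 14.6 CPM in Control pools. The macrophage markers did not move together, with 4 called higher and 1, Vcam1, called lower in CDKO pools (means 0.873 and 5.89 CPM in CDKO and Control pools). Csf1r alone averaged 21.5 CPM in CDKO pools and 3.22 CPM in Control pools. The 6 lymphoid markers summed to 1.73 to 2.75 CPM in CDKO pools and 6.80 to 9.03 CPM in Control pools, and 3 of the 6 were at 0 in each group. The part of these cell types in the differences below was not tested, and in pooled cells fewer cells of a type and less RNA per cell cannot be told apart.

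A ribosome carries a single copy of nearly every one of these proteins, and cells make them in matched amounts. Their mRNAs begin with a terminal oligopyrimidine (TOP) tract, a C followed by a run of pyrimidines, through which the kinase complex mTORC1 and the RNA-binding protein LARP1 adjust how strongly they are translated. Blood stem cells are known to depend on a tightly set rate of protein synthesis, and in humans loss of 1 copy of several of these genes causes Diamond-Blackfan anemia, a failure of red cell production. The genes have also left many processed pseudogenes in mammalian genomes, copies that resemble the mRNA closely.

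That resemblance bears on every count given here, because a read that matches several genes cannot be assigned by sequence alone. In the GENCODE M21 transcripts (GRCm38, the assembly also called mm10), each member's coding sequence was broken into 50-base words, and a word was called shared if it also occurred, on either strand, in a transcript of another annotated gene. All coding words were shared in 31 of the 87 members, at least 90% in 46, and under 50% in 17. The choice of 50 bases is arbitrary, since the read length is not given in the sources used here, and how reads with several matches were treated is not given either. The starts of 3 coding sequences show the range, with capitals marking each base that differs from Rps27 (coding bases 1 to 84, GENCODE M21):
Rps27: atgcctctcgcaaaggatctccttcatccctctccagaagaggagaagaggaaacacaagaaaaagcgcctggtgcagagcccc
Rps27rt: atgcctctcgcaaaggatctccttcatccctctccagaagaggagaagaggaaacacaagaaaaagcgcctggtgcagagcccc
Rps27l: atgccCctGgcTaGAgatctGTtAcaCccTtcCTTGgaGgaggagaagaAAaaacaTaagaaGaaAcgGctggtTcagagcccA

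Over the whole coding sequence of 252 bases, Rps27 and Rps27rt differ at 0 bases, and Rps27l differs from Rps27 at 60. Rps27, a small subunit gene on chromosome 3, was counted at 1.67, 2.03 and 1.54 CPM in CDKO pools and 1.59, 1.07 and 1.72 CPM in Control pools. Its identical copy Rps27rt, on chromosome 9, was listed at 0 in all 6 libraries. Rps27l, which can be told apart from both by sequence, was counted at 94.4 to 101 CPM in CDKO pools and 65.4 to 75.0 CPM in Control pools. Rps27l still shares 48.3% of its coding words with 4 other annotated genes, all pseudogenes. Rpl26, a large subunit gene with 87.3% of its coding words shared with 12 other genes, was also listed at 0 in every library. The median level, not corrected for length, was 11.3 CPM among the 30 tested members with all words shared and 295 CPM among the 15 tested members with under 50% shared.

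Taken as a sum, the members held 1.80, 1.84 and 1.73% of counted reads in the CDKO pools and 2.00, 1.85 and 1.91% in the Control pools. The small subunit genes summed to 0.836, 0.859 and 0.796% of reads in CDKO pools and to 0.972, 0.905 and 0.923% in Control pools, so every CDKO pool lay below every Control pool. The large subunit genes summed to 0.907, 0.932 and 0.877% of reads in CDKO pools and to 0.972, 0.901 and 0.941% in Control pools, and these groups overlapped. The ratio of the small to the large subunit sum was 0.917 ± 0.00811 in CDKO pools and 0.995 ± 0.0127 in Control pools (SD, n = 3 each), with no overlap. The 10 members with most reads held 1.11 ± 0.0436% of reads in CDKO pools and 1.21 ± 0.0262% in Control pools (SD, n = 3 each). As sums over chosen members they are given with no test.

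**Figure D1:**
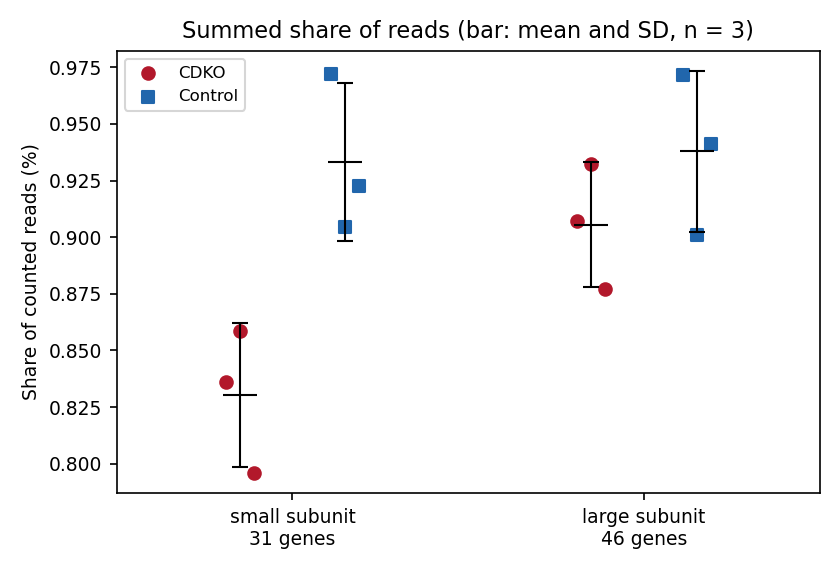
Summed share of counted reads (%, vertical axis, not starting at 0) of the 31 small subunit and 46 large subunit genes, with 1 point per library and the mean and SD of each group of 3. For the small subunit all CDKO points lie below all Control points, and for the large subunit the groups overlap.

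Gene by gene, 83 of the 87 members had a mean of at least 10 reads and were tested. Rpl10l, Rpl26 and Rps27rt were listed at 0, and Rpl3l, the muscle paralog of Rpl3, had 3 reads in 1 Control library and 0 in the others. Of the 83, 15 fell and 8 rose in CDKO pools (limma, adjusted p under 0.05 over all genes tested), which is 23 members or 27.7%, against 66.2% of all 13734 genes tested. The balance moved with the Control libraries, with 12 lower and 11 higher without Control replicate 1 and 22 lower and 6 higher without Control replicate 2. By direction, 31.1% of all genes were higher and 35.2% lower. A change of at least 1.5-fold in mean CPM was also met by 10 of the called members, 6 higher and 4 lower, against 31.9% of all genes tested. Among the 6 is Rpl39l, which was tested only because of its CDKO reads. The median log2 difference over the tested members was -0.07, beside -0.02 over all genes tested. Without CDKO replicate 3 these medians were -0.04 and -0.03, without Control replicate 2 they were -0.11 and -0.02, and the gap between members and all genes thus depended on the libraries. The median size of the difference regardless of sign was 0.14 for members and 0.34 for all genes. Among genes at a mean of 100 CPM or more that size was 0.20 for all 2896 genes, of which 67.8% were called, and 0.13 for the 30 subunit members at that level, of which 10 were called. The pools of the groups did not overlap for 27 members, 18 of them lower and 9 higher in CDKO pools, while 70.6% of all genes tested had no overlap (33.4% with all CDKO pools above and 37.2% with all below). The authors' deposited table also held 23 members with an adjusted p under 0.05, of which 22 were among the 23 called here.

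**Figure D2:**
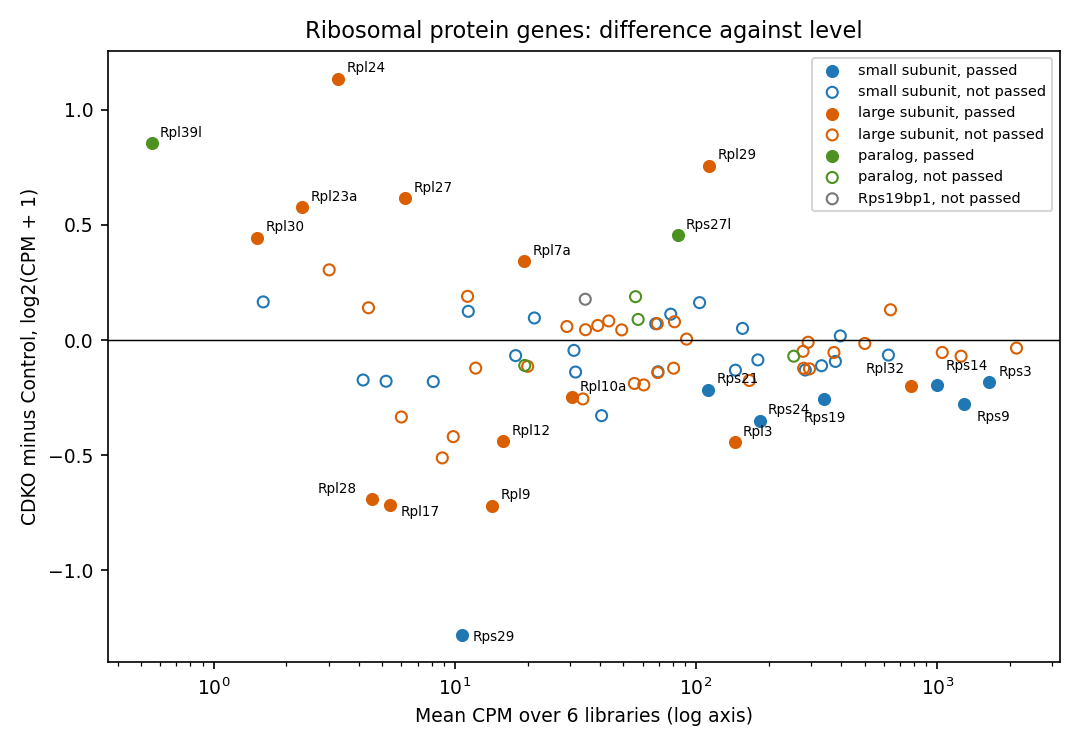
Difference between the groups (CDKO minus Control on the log2(CPM + 1) scale, vertical axis) against mean level (CPM, log axis) for 81 of the 83 tested members, with filled points for genes past the threshold. At 100 CPM or more the filled points lie below 0, apart from Rpl29, and the filled points farthest from 0 lie mostly under 20 CPM.

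The small subunit genes that passed were all lower in CDKO pools. Of 31 tested, 8 fell and 0 rose (limma), and the median log2 difference was -0.13. That is 25.8% called, all lower, against 66.2% called and 35.2% called lower over all genes tested. By sign alone, 23 of the 31 were lower in CDKO pools and 8 higher. The exception among the alternatives was the fit without Control replicate 1, where 6 fell and 1 rose.

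Rps9, an rRNA-binding protein assembled early into the small subunit (chromosome 7, 3703993 to 3706897, plus strand), was at 1128, 1211 and 1155 CPM in CDKO pools and at 1480, 1380 and 1381 CPM in Control pools. All CDKO pools were below all Control pools, a decrease of 17.6% (log2 difference -0.28, SE 0.05, limma adjusted p = 0.000229). Rps3, at the mRNA entry channel and also a DNA repair factor (chromosome 7, 99477896 to 99483738), shares 8.09% of its words with 1 other gene. Its level was 1504, 1631 and 1455 CPM in CDKO pools and 1757, 1729 and 1715 CPM in Control pools (log2 difference -0.18, SE 0.05, limma adjusted p = 0.00563).

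Rps14, a gene linked in humans to the anemia of the 5q deletion syndrome, was at 897, 988 and 913 CPM in CDKO pools and at 1072, 1059 and 1070 CPM in Control pools, and its log2 difference was -0.20 (limma adjusted p = 0.00225). The 3 CDKO values of these abundant genes were close to each other, and the decreases of 11.7 to 17.6% for Rps3, Rps14 and Rps9 were larger than the spread between pools. Rps24 (chromosome 14, 24487125 to 24496959) was at 166, 164 and 154 CPM in CDKO pools and at 223, 194 and 200 CPM in Control pools (log2 difference -0.35, SE 0.06, limma adjusted p = 0.000232). Rps19, the gene most often mutated in human Diamond-Blackfan anemia (chromosome 7, 24884371 to 24889806), was at 317, 323 and 288 CPM in CDKO pools and at 392, 346 and 371 CPM in Control pools (log2 difference -0.26, SE 0.06, limma adjusted p = 0.00188). Both had no overlap between groups, and both share about 80% of their coding words with other genes (78.3% and 81.1%).

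Rps21 and Rps29 passed on weaker ground. Rps21 was at 109, 107 and 94.1 CPM in CDKO pools and at 138, 108 and 117 CPM in Control pools, so the groups overlapped (log2 difference -0.22, limma adjusted p = 0.0428). This call was lost when Control replicate 1 or 3 was left out (adjusted p = 0.193 and 0.0766), and likewise for CDKO replicates 2 and 3 (adjusted p = 0.0574 and 0.161). It was lost as well with edgeR (adjusted p = 0.0751) and DESeq2 (adjusted p = 0.0535). Rps29, whose short coding sequence is wholly shared with other genes, was at 4.44, 4.94 and 5.12 CPM in CDKO pools and at 24.1, 21.4 and 4.04 CPM in Control pools. Control replicate 3 thus lay with the CDKO pools, below all of them, while the other Control pools were far above them. The log2 difference of Rps29 was -1.28 (SE 0.46, limma adjusted p = 0.0283). It was -2.02 without Control replicate 3 (adjusted p = 1.28e-05), and the call was lost when any other library was left out, with an adjusted p of 0.137 without Control replicate 1, 0.143 without Control replicate 2, and 0.0721, 0.0652 and 0.0528 without CDKO replicates 1, 2 and 3.

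Other small subunit members did not pass. Rpsa, the laminin receptor protein of the 40S particle, was at 337, 319 and 299 CPM in CDKO pools and 390, 322 and 323 CPM in Control pools (limma adjusted p = 0.191), and passed after GC and length correction (adjusted p = 0.0359). Rps6, the subunit phosphorylated downstream of mTORC1, was at 24.2, 52.6 and 33.6 CPM in CDKO pools and 40.7, 43.3 and 49.1 CPM in Control pools, with all coding words shared. CDKO replicate 2 stood above every Control pool while the other CDKO pools stood below, and Rps6 did not pass (log2 difference -0.33, limma adjusted p = 0.177). Leaving CDKO replicate 2 out gave -0.62 for Rps6 (adjusted p = 0.00303). Rps4x, encoded on the X chromosome, was at 425, 393 and 378 CPM in CDKO pools and 430, 377 and 375 CPM in Control pools, with a limma adjusted p of 0.804. Rps25 was at 65.1, 65.8 and 67.4 CPM in CDKO pools and 70.9, 70.5 and 77.4 CPM in Control pools, and its groups were separate without passing (adjusted p = 0.0571). Rps7 and Rps12 were separate in the same direction with an adjusted p of 0.154 and 0.254.

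**Figure D3:**
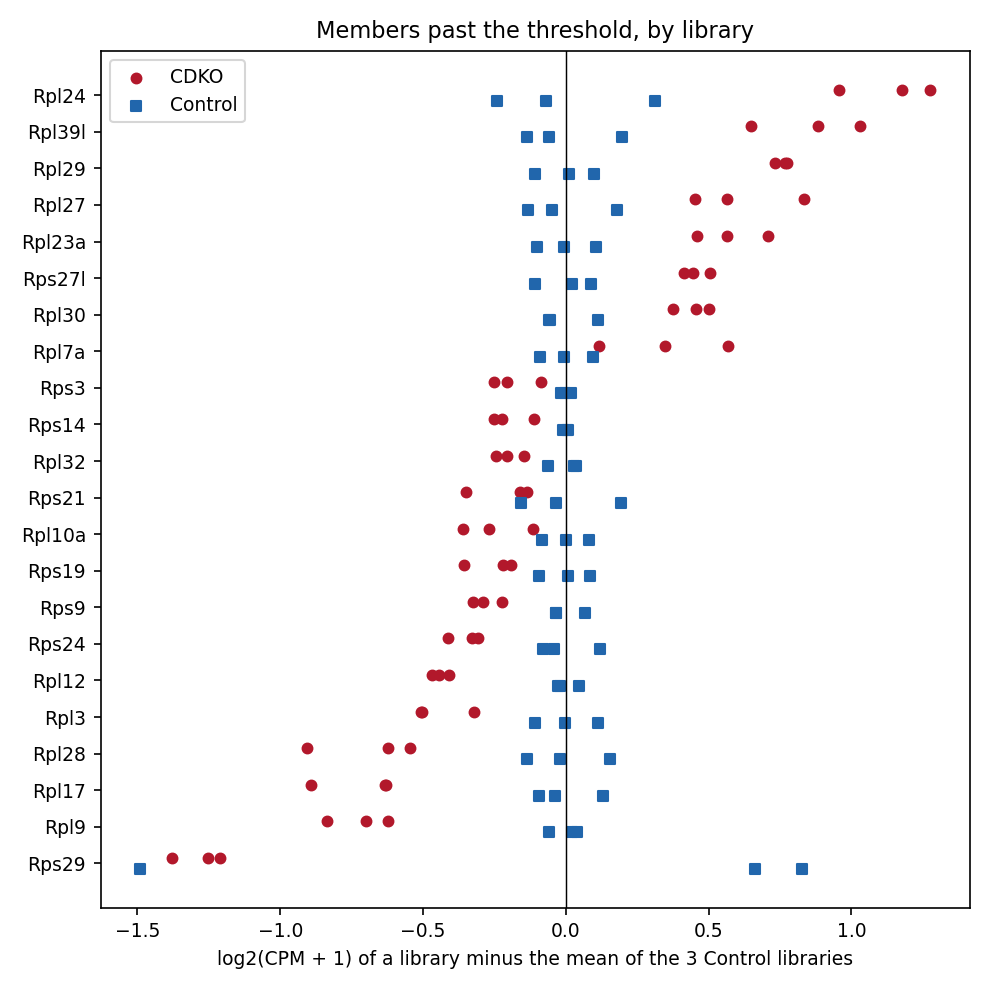
Level of 22 of the 23 members past the threshold in every library, as log2(CPM + 1) minus the mean of the Control libraries (horizontal axis), with CDKO points drawn above Control points in each row. Groups are separate for 20 of these 22 and overlap for Rps29, where 1 Control library lies with the CDKO pools, and for Rps21.

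Of 45 large subunit genes tested, 7 fell and 6 rose (limma), with a median log2 difference of -0.05. That is 28.9% called, against 66.2% of all genes tested. The split was 12 lower and 4 higher without Control replicate 2, 11 lower and 5 higher without CDKO replicate 1, and 12 lower and 6 higher after correction for GC content and length. At a mean of 100 CPM or more, 2 of 14 fell and 1 rose, and in the small subunit 7 of 16 fell and 0 rose. Over all genes at that level 30.7% were lower and 37.2% higher, and the difference between the subunits was not tested.

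Rpl3, whose product reaches towards the peptidyl transferase centre (chromosome 15, 80077791 to 80091868, minus strand), was at 133, 117 and 117 CPM in CDKO pools and at 180, 154 and 166 CPM in Control pools, a decrease of 26.6% with no overlap (log2 difference -0.44, SE 0.07, limma adjusted p = 0.000135). Of its coding words 95.7% are shared, with 26 other annotated genes, all pseudogenes. The count of Rpl3 thus cannot be assigned to the parent gene with certainty. Rpl32 (chromosome 6, 115805505 to 115808747), which is well separated by sequence with 37.6% of words shared, was at 705, 755 and 724 CPM in CDKO pools and at 856, 800 and 852 CPM in Control pools (log2 difference -0.20, SE 0.04, limma adjusted p = 0.00175). The remaining 5 large subunit genes that fell were counted at low levels and share 99.5 to 100% of their words. Rpl9 was at 10.7, 9.64 and 11.3 CPM in CDKO pools and 17.2, 18.3 and 18.5 CPM in Control pools (log2 difference -0.72, SE 0.11, limma adjusted p = 0.000178). Rpl17 averaged 3.84 ± 0.490 CPM in CDKO pools and 6.96 ± 0.656 CPM in Control pools (SD, n = 3 each), and Rpl28 averaged 3.22 ± 0.538 and 5.80 ± 0.695 CPM in CDKO and Control pools. Rpl12, part of the stalk base where elongation factors bind, averaged 13.3 ± 0.298 CPM in CDKO pools and 18.4 ± 0.529 CPM in Control pools. Rpl10a was at 27.3, 30.5 and 25.6 CPM in CDKO pools and 35.1, 31.2 and 33.1 CPM in Control pools (limma adjusted p = 0.0314). Rpl10a did not pass with quantile normalization (adjusted p = 0.0804) or DESeq2 (adjusted p = 0.0517). It no longer passed when Control replicate 1 or 3 was left out (adjusted p = 0.105 and 0.0726), or CDKO replicate 1 or 3 (adjusted p = 0.0687 and 0.106).

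Rpl29, a basic protein of the 60S surface (chromosome 9, 106429454 to 106431568), had the smallest p of all members and moved against the abundant genes. It was at 144, 144 and 140 CPM in CDKO pools and at 84.7, 77.8 and 89.9 CPM in Control pools, 1.70-fold higher (log2 difference 0.76, SE 0.06, limma adjusted p = 1.13e-06). The pools within each group were close and the groups far apart. Its coding words are 90.3% shared, with 84 other annotated genes of which 81 are pseudogenes, so its count cannot be assigned to the parent gene with certainty. Rpl24, which bridges both subunits, was at 5.02, 5.45 and 4.16 CPM in CDKO pools and at 1.25, 2.30 and 1.54 CPM in Control pools (log2 difference 1.14, SE 0.18, limma adjusted p = 0.000169). Rpl27 was at 7.36, 9.07 and 6.73 CPM in CDKO pools and 5.40, 4.47 and 4.16 CPM in Control pools (log2 difference 0.62, limma adjusted p = 0.00417). Rpl23a, which lies at the exit of the nascent chain tunnel, was at 3.35, 2.94 and 2.67 CPM in CDKO pools and 1.48, 1.87 and 1.65 CPM in Control pools (log2 difference 0.58, limma adjusted p = 0.00500). These 3 genes share 100% of their coding words.

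Rpl30 and Rpl7a also rose but less securely. Rpl30 averaged 1.90 ± 0.127 CPM in CDKO pools and 1.13 ± 0.146 CPM in Control pools (limma adjusted p = 0.0182), and did not pass with edgeR (0.0933 as adjusted p) or DESeq2 (0.0862), nor with limma when Control replicate 2 was left out (0.0548). Rpl7a, with words shared with 123 other genes, was at 25.5, 18.4 and 21.8 CPM in CDKO pools and 16.8, 15.8 and 18.1 CPM in Control pools (limma adjusted p = 0.0299). Its adjusted p was 0.0654 without Control replicate 1, 0.103 without Control replicate 2, 0.126 without CDKO replicate 1 and 0.0620 without CDKO replicate 3.

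Among large subunit genes that did not pass, Rpl4 had the most reads of any member, at 2037, 2207 and 2076 CPM in CDKO pools and 2150, 2130 and 2193 CPM in Control pools (log2 difference -0.03, SE 0.04, limma adjusted p = 0.505). With 20.3% of its words shared it can be counted well. Rpl8, at 1015, 1085 and 989 CPM in CDKO pools and 1111, 1050 and 1045 CPM in Control pools, did not pass either (adjusted p = 0.319). Rpl10 had lower CDKO pools without overlap (log2 difference -0.33) and an adjusted p of 0.0586, and Rpl31 was separate in the other direction (adjusted p = 0.191). Rpl7, Rpl14 and Rpl39 had the differences nearest 0, at -0.01, -0.01 and 0.00 on the log2 scale, and their sign changed between alternatives. The P-stalk genes, whose products recruit the translation factors that split GTP, were not among the genes called. Rplp0 was at 1231, 1303 and 1146 CPM in CDKO pools and 1325, 1279 and 1254 CPM in Control pools (adjusted p = 0.239), and passed with quantile normalization (adjusted p = 0.0198). Rplp1 averaged 366 ± 26.9 CPM in CDKO pools and 380.3 ± 40.2 CPM in Control pools (SD, n = 3 each). Rplp2 was at 36.1, 27.7 and 27.6 CPM in CDKO pools and 45.2, 25.5 and 41.4 CPM in Control pools (limma adjusted p = 0.233), and passed without Control replicate 2, its lowest Control pool (log2 difference -0.50, adjusted p = 0.00771).

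Rpl5 and Rpl11 form, with 5S rRNA, the particle that binds and inhibits MDM2 when ribosome assembly fails and so raises p53. Rpl5 was at 8.55, 7.33 and 8.60 CPM in CDKO pools and at 15.4, 8.91 and 10.3 CPM in Control pools. The groups did not overlap, and the difference did not pass (log2 difference -0.42, SE 0.18, limma adjusted p = 0.0562). It passed without Control replicate 2 (adjusted p = 0.0241), after GC and length correction (adjusted p = 0.0393), with a minimum mean of 50 reads (adjusted p = 0.0449) and with a pseudocount of 5 (adjusted p = 0.0496). Rpl11 was at 3.90, 13.6 and 4.35 CPM in CDKO pools and at 13.2, 13.8 and 4.30 CPM in Control pools. Its values lay at 2 levels, about 4 and about 13 CPM, with libraries of both groups at each (log2 difference -0.51, SE 0.43, limma adjusted p = 0.316). Without CDKO replicate 2 the difference was -1.02 (adjusted p = 0.0380). Both genes share 100% of their coding words with other genes.

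**Figure D4:**
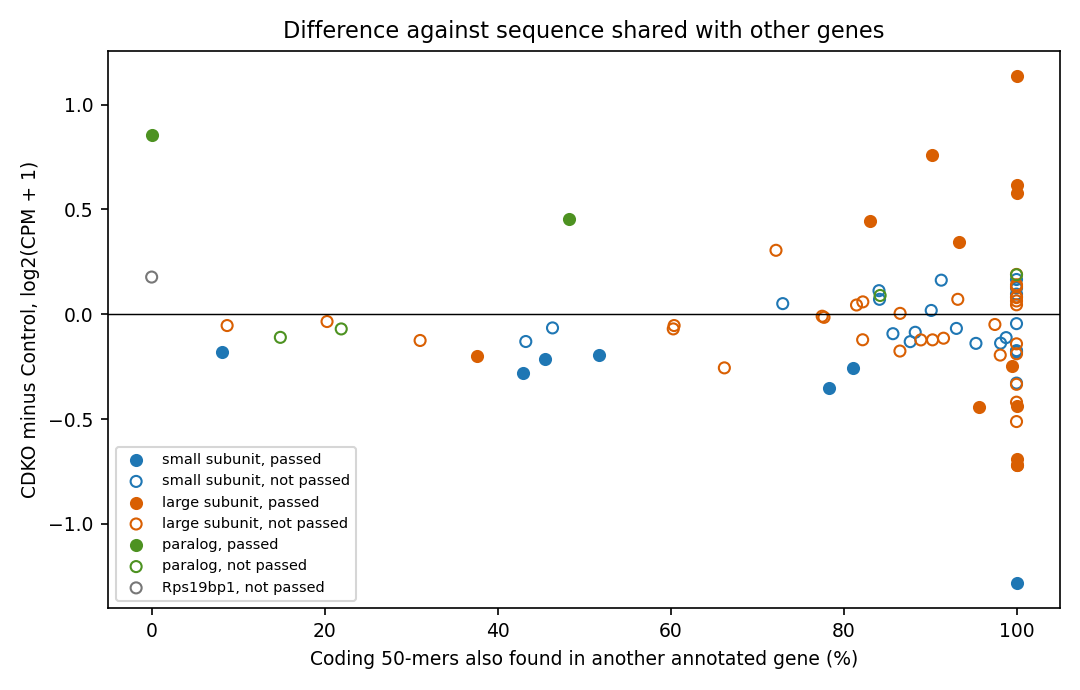
Difference between the groups (CDKO minus Control on the log2(CPM + 1) scale) against the share of each member's coding 50-base words found in another annotated gene (%), for 81 of the 83 tested members, with filled points for genes past the threshold. Members with under 50% shared lie within -0.28 and 0.85, with the 2 rising ones both paralogs, and the spread is widest at 100%.

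Set out by shared sequence, the 15 tested members with under 50% of their words shared comprised 5 that fell and 2 that rose. Those that fell included Rps9, Rps21, Rpl32 and Rps3, and the 2 that rose were the paralogs Rps27l and Rpl39l. Of the 23 with 50 to under 90% shared, 3 fell (Rps14, Rps19 and Rps24) and 1 rose (Rpl30). Of the 45 with 90% or more shared, 7 fell and 5 rose, and the differences ran from -1.28 to 1.14 on the log2 scale. Among the subunit genes at a mean of 20 to under 100 CPM, 1 of 23 was called, against 10 of 23 under 20 CPM. Called shares were 46.7, 17.4 and 26.7% from the least to the most shared group, and 4.35 and 43.5% in these level groups. All lie below the 66.2% called over all genes tested, and differences between the groups were not tested.

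Paralogs replace or accompany a parent protein in some tissues. Of 6 tested, 2 rose and 0 fell, and 1 of the 2 (Rpl39l) was tested only because of its CDKO reads. That is 33.3% called, all higher, near the 31.1% called higher over all genes tested and below the 66.2% called in either direction. Rps27l, a p53-induced paralog of Rps27 (chromosome 9, 66946086 to 66949516, plus strand), was at 101, 94.4 and 96.4 CPM in CDKO pools and at 71.6, 65.4 and 75.0 CPM in Control pools, 1.37-fold higher with no overlap (log2 difference 0.46, SE 0.06, limma adjusted p = 6.17e-05). Its log2 difference ran from 0.40 to 0.50 over all alternatives and kept its call in all but the 1.5-fold minimum. As given above, 48.3% of the coding words of Rps27l are shared with pseudogenes. The parent Rps27, counted at the few CPM given above, did not pass (adjusted p = 0.388). Rpl39l, known in mouse mainly from male germ cells (chromosome 16, 10170226 to 10174911), has no coding word shared with another gene. It had 41, 30 and 44 reads in CDKO pools and 0, 2 and 11 reads in Control pools, which is 1.25, 0.723 and 1.03 CPM against 0, 0.0549 and 0.260 CPM (log2 difference 0.85, SE 0.17, limma adjusted p = 0.000813). With so few Control reads it passed the filter on low values through its CDKO reads, and no fold is given. Its ratio of mean CPM is still counted among the members with a change of at least 1.5-fold. The parent Rpl39, on the X chromosome, was at 89.0, 91.6 and 93.1 CPM in CDKO pools and 102, 81.8 and 89.8 CPM in Control pools (adjusted p = 0.963). The starts of both coding sequences are shown because the paralog differs in letters enough to be counted apart from its parent, with capitals for bases that differ (coding bases 1 to 84, GENCODE M21):
Rpl39: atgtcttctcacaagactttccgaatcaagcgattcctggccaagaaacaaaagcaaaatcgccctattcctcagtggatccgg
Rpl39l: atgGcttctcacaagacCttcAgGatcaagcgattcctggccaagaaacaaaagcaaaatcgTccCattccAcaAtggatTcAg

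The other paralogs did not pass. Rpl36al differs from Rpl36a at 39 of 318 coding bases, though all its words are shared with 3 other genes. It was at 59.4, 62.4 and 57.3 CPM in CDKO pools and 59.1, 46.5 and 51.9 CPM in Control pools (limma adjusted p = 0.0673), and passed without Control replicate 1 (adjusted p = 0.0110), with quantile normalization (adjusted p = 0.0357) and after GC and length correction (adjusted p = 0.0424). Rpl36a averaged 4.65 ± 0.713 CPM in CDKO pools and 4.11 ± 0.276 CPM in Control pools (SD, n = 3 each). Rpl22l1, the paralog of the RNA-binding protein Rpl22 that is known to be held down by Rpl22, was at 68.0, 55.2 and 55.0 CPM in CDKO pools and 58.4, 50.9 and 57.4 CPM in Control pools (adjusted p = 0.395). Rpl22 itself averaged 283 ± 23.3 CPM in CDKO pools and 308 ± 9.77 CPM in Control pools (adjusted p = 0.0747), and passed without CDKO replicate 1 (log2 difference -0.17, adjusted p = 0.0307) and after GC and length correction (adjusted p = 0.0107). Rpl7l1 was at 238, 244 and 262 CPM in CDKO pools and 267, 247 and 267 CPM in Control pools (adjusted p = 0.239), and Rps4l, annotated in GENCODE M21 as a transcribed processed pseudogene, averaged 18.7 ± 0.895 and 20.3 ± 2.19 CPM in CDKO and Control pools. Rps19bp1, the member that is no subunit, averaged 36.9 ± 2.03 CPM in CDKO pools and 32.6 ± 2.86 CPM in Control pools (adjusted p = 0.0910).

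**Figure D5:**
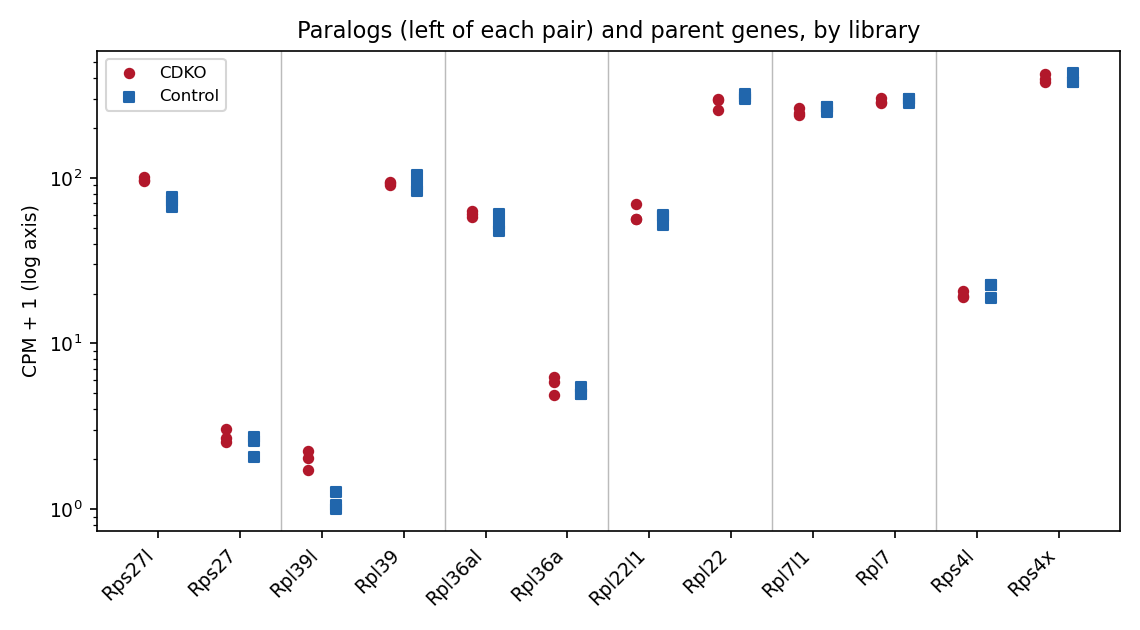
Level (CPM + 1, log axis) of 6 paralogs and their parent genes in every library, with CDKO points left of Control points for each gene. Rps27l and Rpl39l are separate between the groups, and the groups overlap for each parent gene shown.

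Of 20 members whose human counterparts are mutated in Diamond-Blackfan anemia 19 were tested, and 3 fell (Rps19, Rps24 and Rps29) while 1 rose (Rpl27), with a median log2 difference of -0.11. The 15 that did not pass include Rps26, at 159 CPM in CDKO pools and 153 CPM in Control pools. As 4 of 19 this list was called at 21.1%, against 27.7% of all tested members and 66.2% of all genes tested.

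The TOP tract was looked for at the annotated transcription start in the RefSeq promoter sequences (GRCm38.p6), which matched 66 of the 87 members by symbol. It was defined as a C at the start base followed by at least 4 bases that are each C or T, on the gene's strand only. The tract was present exactly at the annotated start in 13 of 57 subunit genes (22.8%), against 3.01% of all 27025 genes with a promoter entry and 0 of 69 mitochondrial ribosomal protein genes. An annotated start may lie some bases from the true start, so a tract beginning within 10 bases of it was also looked for. Here the base before the C could not be C or T. That condition was not set at the start itself, so the shares cannot be compared directly. Such a tract was found in 45.6% of the subunit genes, 37.7% of the mitochondrial ribosomal protein genes and 26.0% of all genes. Shown are 2 members that fell, Rpl28 and Rps21, and 4 that did not pass, with 30 bases before the start and 20 from it, and the tract in capitals. They are listed as Rpl28 (chr7:4792935-4792984, plus strand), Rps21 (chr2:180257349-180257398, plus strand), Rps6 (chr4:86857348-86857397, minus strand), Rps27 (chr3:90213629-90213678, minus strand), Rpl15 (chr14:18270967-18271016, minus strand) and Rpl38 (chr11:114668550-114668599, plus strand):
Rpl28: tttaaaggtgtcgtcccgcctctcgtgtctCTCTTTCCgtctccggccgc
Rps21: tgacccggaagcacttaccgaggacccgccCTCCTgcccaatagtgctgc
Rps6: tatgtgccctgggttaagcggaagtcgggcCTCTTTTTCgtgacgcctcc
Rps27: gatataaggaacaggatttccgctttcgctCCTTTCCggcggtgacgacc
Rpl15: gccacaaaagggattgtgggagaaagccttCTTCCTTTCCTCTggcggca
Rpl38: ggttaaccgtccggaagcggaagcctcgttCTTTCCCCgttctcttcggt

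Among the subunit genes with a promoter entry, the tract at the start was found in 2 of 9 that fell, 0 of 3 that rose and 11 of 44 that did not pass, and 1 more was not tested. A match is a description of these letters and a missing one says nothing about how a gene is controlled.

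Other TOP mRNAs, were taken as a list of translation factors and related genes outside the rule. Of 23 tested, 8 rose and 6 fell (60.9%, near the 66.2% of all genes), with a median log2 difference of 0.05. The elongation factor genes split. Eef1a1 averaged 3935 CPM in CDKO pools and 4526 CPM in Control pools, and Eef2 averaged 3593 and 4145 CPM in CDKO and Control pools. Both fell (limma adjusted p = 0.0114 and 0.00369), as did Eef1b2 and Eef1d, while Eef1g rose. Eif3h, a subunit of an initiation factor, was at 250.3, 274 and 246 CPM in CDKO pools and 345, 310 and 314 CPM in Control pools (adjusted p = 0.000286). Npm1, a nucleolar protein that helps assemble ribosomes, was at 652, 564 and 577 CPM in CDKO pools and 489, 474 and 488 CPM in Control pools (adjusted p = 0.000377), and Vim, the intermediate filament vimentin, rose as well (adjusted p = 6.83e-06).

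Fau and Gnb2l1 encode ribosomal proteins under names that the rule does not take. Fau, which yields Rps30 fused to a ubiquitin-like protein, was at 12.1, 11.1 and 10.2 CPM in CDKO pools and 5.70, 4.80 and 5.81 CPM in Control pools, 2.05-fold higher (limma adjusted p = 0.000120). Gnb2l1, the older symbol of Rack1, a scaffold on the small subunit, was at 1145, 1129 and 1036 CPM in CDKO pools and 1197, 1083 and 1093 CPM in Control pools (adjusted p = 0.660), and passed with quantile normalization (adjusted p = 0.0386).

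The mTORC1 list, which holds the kinase complex that promotes translation of TOP mRNAs and its targets, had 4 genes that rose and 4 that fell of 14 tested, near the 66.2% called over all genes. Rptor, the scaffold of mTORC1, was at 47.1, 56.8 and 51.3 CPM in CDKO pools and 107, 96.9 and 99.4 CPM in Control pools (log2 difference -0.95, limma adjusted p = 1.15e-06), and Mtor fell too (log2 difference -0.50, adjusted p = 0.000106). Tsc1 and Tsc2, which together inhibit the complex, also fell, Tsc1 to 28.4, 27.4 and 26.0 CPM in CDKO pools, against 58.6, 54.2 and 58.0 CPM in Control pools. Mlst8, another subunit of the complex, was at 35.8, 36.1 and 37.2 CPM in CDKO pools and 18.1, 18.5 and 16.1 CPM in Control pools (log2 difference 1.01, adjusted p = 3.19e-06). Larp1, which binds the TOP tract, averaged 455 CPM in CDKO pools and 427.5 CPM in Control pools and did not pass (adjusted p = 0.0756).

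Of 8 genes for dedicated chaperones of ribosomal proteins and for loading of the 5S particle, 3 rose and 2 fell, again near the 66.2% of all genes. Rrs1 and Rpf2, which in yeast bring the Rpl5 and Rpl11 particle into the growing 60S subunit, were 1.25-fold and 1.33-fold higher in CDKO pools (limma adjusted p = 0.000320 and 0.000379), and Heatr3, known in human cells as a carrier of Rpl5, was 1.20-fold higher (adjusted p = 0.000619). Bccip, whose yeast relative is a chaperone of Rpl23, fell (log2 difference -0.27, adjusted p = 0.00129), as did Pdcd2l.

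The mitochondrial ribosomal protein genes, encode the separate ribosome inside mitochondria. Of 77 tested, 31 rose and 10 fell (53.2%), against 31.1% higher and 35.2% lower of all genes (66.2% in all), with a median log2 difference of 0.11, and they summed to 0.416, 0.424 and 0.428% of reads in CDKO pools and 0.392, 0.378 and 0.398% in Control pools. Mrps7 was at 96.1, 92.0 and 83.4 CPM in CDKO pools and 53.1, 54.2 and 54.4 CPM in Control pools (log2 difference 0.73, limma adjusted p = 2.62e-06). Mrpl50 and Mrpl46 rose by similar amounts (log2 differences 0.66 and 0.71), and Mrpl49 fell (log2 difference -0.54, adjusted p = 4.54e-05). The difference between the mitochondrial and the cytosolic genes was not tested.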

How the data were processed

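mRNA of sorted HSC was amplified from total RNA with SMARTer chemistry and made into Nextera XT libraries, per the labels' protocols. TopHat2, HTSeq and DESeq2 (no versions) and build mm10 are named, per the submitters' processing notes; annotation, read length and the treatment of reads with several matches are not given in the sources used here. The deposited values per library are CPM. In each library the size of 1 read was read from the lowest value, and 99.9989% of nonzero CPM values were whole multiples of it (tolerance 0.01). The deposited baseMean is a mean signal after size factor scaling, the deposited stat is a score, and the deposited log2 fold change sets Control over CDKO; of the authors' results only the adjusted p-value and sign were used.

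Genes with a mean of at least 10 recovered reads were tested by limma 3.58.1 in R 4.3.3. The fit took log2(CPM + 1), used eBayes with its trend option and contrasted CDKO with Control, two-sided and Benjamini-Hochberg adjusted over all 13734 genes; fold changes on this scale understate low genes. Folds and percent changes are ratios of mean CPM, n is 3 pools per group. The 12 date-named rows were left out. The fit was also run on simulated reads, in which far fewer genes changed than were called here. That run therefore cannot give the error rate for these data. Libraries are separate pools, and no preparation batch is named. As alternatives the recovered reads were tested with edgeR 4.0.16 and with DESeq2 1.42.0.

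Members and lists were chosen with earlier results of these data known. The rule named Nr4a1, Rpl5, Rpl11, the P-stalk genes, Rpsa, Rps6, Rps19, each tested paralog with its parent, the 6 highest and 6 lowest called members, the 3 with most reads, those nearest 0, up to 4 genes per other list, and Fau and Gnb2l1, as ribosomal protein genes outside the symbol rule; other genes were named after their values were seen. CPM values are not corrected for gene length. Some genes are counted in the totals but not reported here by name, and 2 members are left out of the plots of single members.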

Additional observations from a re-analysis of the deposited data

How the results depend on the processing

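The count of members called was between 20 and 28 with any single library removed. It was 22 with TMM scaling, 31 with quantile normalization, 33 with GC and length correction, 21 with edgeR and 21 with DESeq2. Requiring a 1.5-fold change left 10 members (6 higher and 4 lower), 1 small subunit gene, 8 large subunit genes, 1 paralog, 2 genes of the anemia list, 1 TOP list gene, 3 mTORC1 list genes, 0 chaperone list genes of 5, 7 mitochondrial genes and 4385 of all genes. At an adjusted p under 0.1, 35 members and 20 large subunit genes were called. The paralog that met the 1.5-fold change was Rpl39l, tested only because of its CDKO reads. A mean of at least 50 reads or of at least 10 CPM left 1 paralog called, since Rpl39l is then not tested. The members' median log2 difference ran from -0.107 to -0.0383 with any single library removed, and the difference in their summed share of reads from -0.167 to -0.0950 percentage points.

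The sign changed for 7 genes near 0, of which Gnb2l1 passed with quantile normalization and no other passed under any alternative. With any single library removed, the log2 difference ran from -0.114 to 0.0294 for Rplp1, -0.0420 to 0.0111 for Rpl7, -0.00985 to 0.140 for Rpl22l1, -0.0719 to 0.0891 for Rpl39, -0.0285 to 0.0830 for Rps4x, -0.0727 to 0.0187 for Rpl14 and -0.0546 to 0.0184 for Gnb2l1. It was 0.00487, 0.00504 and 0.00533 for Rpl7 with TMM scaling, edgeR and DESeq2, -0.0248 for Rpl22l1 and -0.00261 for Rpl39 after the GC and length correction, and -0.0468 for Rps4x with quantile normalization. The cause was not tested.

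No label ties equal replicate numbers to a shared litter or day. Deviations of same-numbered libraries correlated at 0.0518, 0.0483 and -0.0120, so pairing was not assumed. With replicate number as a block 32 members were called, 11 of the small and 19 of the large subunit, and Rpl5, Rpl22 and Rpsa passed (adjusted p = 0.0282, 0.0383 and 0.0470). The pairs of replicates 1 and of replicates 2 had the highest correlations of all pairs across the groups. The next was 0.0264, for CDKO replicate 2 and Control replicate 3. CDKO replicate 3 and Control replicate 3 did not correlate best with each other. A limit is shared sequence: for the 46 members with 90% or more of their coding words shared, a change in the parent gene and in its copies cannot be told apart.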
